A study of Homo sapiens with 16 samples.

Results

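Clone G10 is a line of A375 human melanoma cells that was transfected with the human catalase cDNA in the pcDNA3 vector, selected with geneticin and isolated by clonal dilution. Its 4 arrays were compared with both control lines, the untransfected A375 cells (4 arrays) and the A375-PCDNA3 cells that carry the empty vector (4 arrays). These 12 arrays are the members of the comparison, out of 16 arrays in the series. The other 4 arrays hold A7, a second catalase clone made in the same way. A375 is an amelanotic melanoma line, and all 4 groups share its background. G10 is 1 clone, so that an effect of the catalase vector and a property of that clone cannot be told apart. The labels call the 4 arrays of a group biological replicates without describing the cultures, and p-values therefore measure the spread between these arrays.

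Catalase breaks down hydrogen peroxide, mainly in peroxisomes. Hydrogen peroxide is toxic at high levels and acts as a signal at low ones, by oxidising cysteines of kinases, phosphatases and transcription factors. Melanoma cells derive from melanocytes, a neural crest lineage that makes melanin in melanosomes, and they can also express genes otherwise kept to germ cells, neurons or antigen-presenting cells.

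Levels are RMA values on the log2 scale for 33297 transcript clusters, and a difference of 1 is a fold change of 2. A difference is the mean of G10 minus the mean of both control lines, each line counting equally, and is given with its standard error. Adjusted p-values come from limma over all clusters, and a cluster was called at an adjusted p under 0.05. Clusters of olfactory receptor genes had a median level of 3.49 and a 95th percentile of 5.18, and the latter served as the level of genes that are not expressed. Whether these cells express any of the receptors was not tested. Where G10 or its control lay below that level, the size is given as a bound computed against that level.

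Arrays of one group correlated at r = 0.984 or above over all clusters, with array medians between 5.85 and 5.97. The G10 arrays fell into pairs. Replicates 1 and 2 correlated at 0.994 and replicates 3 and 4 at 0.992, against 0.984 to 0.987 between the pairs. What separates the pairs is not given in the labels. Of 11 melanoma markers measured, all 11 were above the olfactory receptor level. Of 14 leukocyte, T cell and macrophage markers, 9 were at or below it in every group mean, among them PTPRC, CD3D and CD3E, and of all 14 CD68 was higher in G10 and CORO1A and CD4 were lower. None of 10 keratinocyte and epithelial and 8 endothelial markers was called in G10. Of these, 6 and 3 were above the olfactory receptor level in a group mean, as were 8 of 9 fibroblast markers.

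The transcript of the transfected gene was not raised in G10. CAT, which encodes catalase, had levels of 8.64, 9.03, 8.65 and 8.62 in A375, 8.51, 8.51, 8.53 and 8.71 in PCDNA3 and 8.51, 8.55, 7.74 and 8.27 in G10. The G10 values overlapped those of PCDNA3, and replicate 3 was the lowest of all 12. The difference was -0.38 ± 0.13 (adjusted p = 0.053), just outside the threshold, and an exact two-sided permutation test of the G10 arrays against the 8 control arrays, for this 1 gene, gave p = 0.016 (smallest possible 0.0020). Against A7, where CAT was 9.02, 8.92, 9.12 and 9.02, the difference was -0.75 ± 0.15 (adjusted p = 0.0022). Whether the probes of this cluster lie within the transfected cDNA was not tested.

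Over all clusters, 3303 were higher in G10 (9.92% of those tested) and 2631 were lower (7.9%). At stricter limits, a difference of 2 or more with an adjusted p not above 1e-04, 39 were higher (0.117%) and 57 lower (0.171%). All 4 G10 arrays lay above all 8 control arrays for 5.96% of clusters and below them for 4.35%. Of the 18417 genes with a cluster of their own, 13.2% were called higher and 10.5% lower, with a median difference of -0.03. These shares are the background for the gene groups below. They include genes that are not expressed, whereas most genes of the groups are above the olfactory receptor level. Of 13619 genes above that level with a known position, 16.8% were higher and 13.3% lower.

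Genes of MHC class II antigen presentation rose. Class II molecules are pairs of alpha and beta chains that show peptides to CD4+ T cells; DM loads the peptide, DO restrains DM, and CIITA, together with the RFX and NF-Y factors on the class II promoters, switches the family on. Of 9 chain and chaperone genes with a cluster of their own, 8 rose, against 13.2% of all genes, and the median difference over all 9 was 1.53. In these 8 genes every G10 array lay above every control array (background 7.81% of genes). All 8 lie on chromosome 6, where 37.0% of genes above the olfactory receptor level were called higher.

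The promoters of this family carry shared letters, and the 4 shown are those of measured members that hold TGATGAT in the window; HLA-DPA1 and HLA-DQA1, which rose as well, hold neither TGATGAT nor GATTGG. The sequences are from RefSeq (GRCh38.p14), 5′ to 3′ on the strand of the gene. Capitals mark TGATGAT, at the end of the X box that RFX and its partners bind, and GATTGG or its reverse complement, the core of the Y box that NF-Y binds.
HLA-DRB5, chr6:32530361-32530416 (minus strand): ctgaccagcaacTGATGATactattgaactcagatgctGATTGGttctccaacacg
HLA-DMA, chr6:32953160-32953216 (minus strand): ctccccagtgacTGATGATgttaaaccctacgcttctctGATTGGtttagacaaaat
HLA-DMB, chr6:32941033-32941122 (minus strand): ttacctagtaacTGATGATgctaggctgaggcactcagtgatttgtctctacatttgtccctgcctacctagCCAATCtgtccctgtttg
HLA-DOB, chr6:32817059-32817138 (minus strand): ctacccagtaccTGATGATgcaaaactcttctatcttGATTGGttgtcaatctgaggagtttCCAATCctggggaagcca
Over 35116 promoter windows of the same length around gene starts, searched on both strands, TGATGAT was present in 2.59% and GATTGG in 15.1%. Among the 9 measured class II genes, TGATGAT was found in 4 and GATTGG in 7. The HLA-DQB1 promoter holds GATTGG as well, and the cluster read for that gene was at the level of unexpressed genes in every group. The paper lists HLA-DQB1 among the genes upregulated in G10 against control. Clusters with several gene symbols were not looked at for this gene. A match of letters is a description and not a binding site shown here.

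Among the peptide-presenting chains, HLA-DRB5, a DR beta chain, had levels of 6.01, 6.24, 5.75 and 5.56 in A375, 6.15, 6.53, 6.74 and 6.48 in PCDNA3 and 9.05, 9.04, 8.67 and 8.66 in G10. The difference was 2.67 ± 0.13 (adjusted p = 1.3e-09), with no overlap between the groups. Other DRB genes are near-identical, and their part in the signal of this cluster was not tested.

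HLA-DPA1, the DP alpha chain, was at 10.40, 10.64, 10.23 and 10.24 in A375, 10.88, 10.65, 10.72 and 10.69 in PCDNA3 and 12.40, 12.44, 12.58 and 12.34 in G10. Its partner HLA-DPB1 was at 8.92, 9.11, 8.79 and 8.87 in A375, 8.96, 9.24, 9.13 and 9.32 in PCDNA3 and 10.87, 10.91, 11.06 and 10.97 in G10. Both chains of DP rose, by 1.88 ± 0.12 for the alpha chain (adjusted p = 2.4e-08) and 1.91 ± 0.08 for the beta chain (adjusted p = 3.1e-10). Of the DQ pair, HLA-DQA1 rose by 0.86 ± 0.12 (adjusted p = 1.3e-04), while HLA-DQB1 stayed at 3.02 to 3.52 in G10 and 2.72 to 3.69 in the controls, where no change can be read.

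The DM and DO chaperones rose as well. HLA-DMB moved from 8.12 to 8.43 on the control arrays to 9.77 to 10.04 in G10, a difference of 1.65 ± 0.09 (adjusted p = 4.3e-09), and HLA-DMA from 7.89 to 8.44 to 9.27 to 9.65, a difference of 1.19 ± 0.11 (adjusted p = 1.3e-06). HLA-DOA rose by 1.53 ± 0.13 (adjusted p = 5.4e-07). HLA-DOB was below the olfactory receptor level in the controls and rose by at least 0.33, with a measured difference of 1.47 ± 0.14 (adjusted p = 1.7e-06).

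Of 8 regulators of the family, 5 rose and 1, CREB1, fell (-0.30 ± 0.09, adjusted p = 0.024), a call lost against either control alone and without G10 replicate 1 (-0.24) or 2 (-0.29). CIITA, the master activator, was at 5.68, 5.69, 5.82 and 5.90 in A375, 6.03, 5.90, 6.18 and 6.0 in PCDNA3 and 6.74, 6.27, 6.56 and 6.61 in G10, a difference of 0.64 ± 0.09 (adjusted p = 7.9e-05). RFXAP, a subunit of the RFX complex, rose by 0.66 ± 0.09 (adjusted p = 1.2e-04), and NFYA, a subunit of NF-Y, by 0.47 ± 0.09 (adjusted p = 0.0011). The rise of RFX5 (0.33 ± 0.09, adjusted p = 0.020) was not called against A375 alone (0.26, adjusted p = 0.12) or without G10 replicate 1 (0.27, adjusted p = 0.081) or 2 (0.30, adjusted p = 0.068). Against A7, all 8 chain and chaperone genes and 3 regulators were higher in G10. Of 13 measured markers of B cells and dendritic cells, the usual bearers of class II, 1 was higher (ITGAX) and 1 lower (CD22), 7 were at or below the olfactory receptor level, and MS4A1, CD86, CD1C and FCER1A were among those 7.

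**Figure D1:**
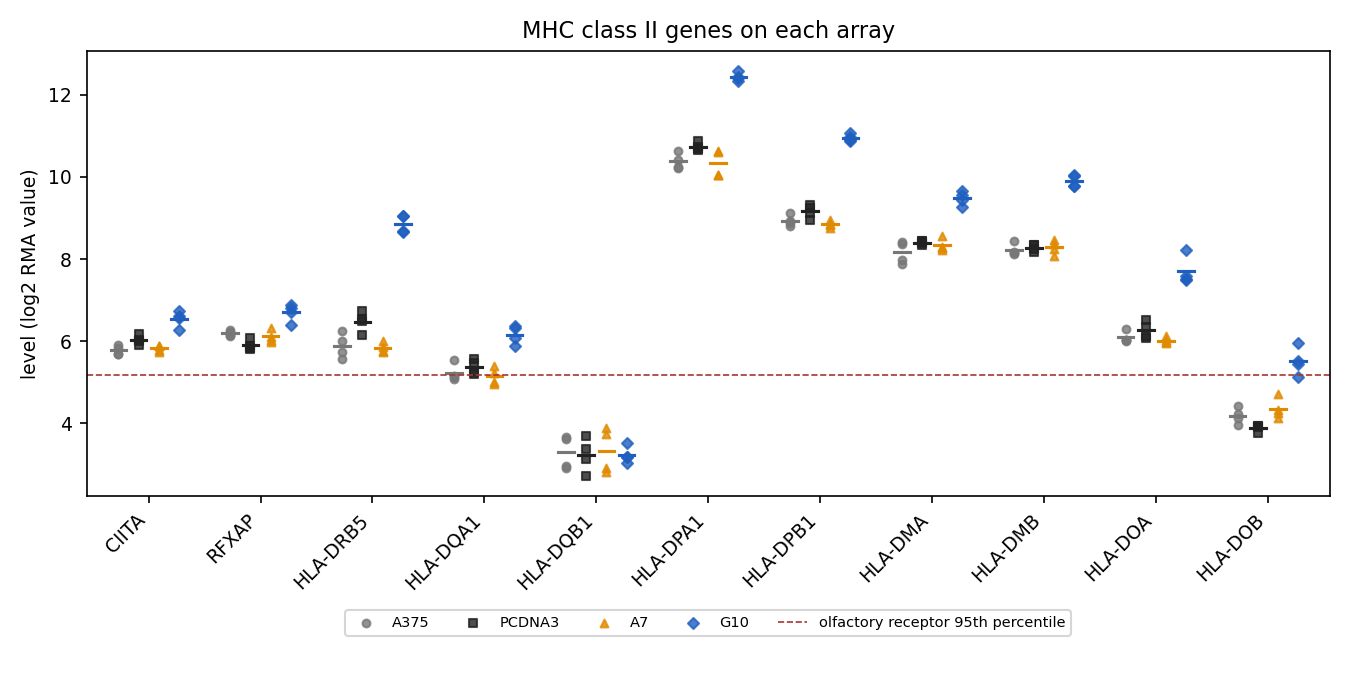
Level on the log2 scale (vertical axis) of the MHC class II regulators CIITA and RFXAP (2 of the 8 measured) and of the chains and chaperones (horizontal axis) on each array of A375, PCDNA3, A7 and G10; points are arrays, short lines group means and the dashed line the 95th percentile of olfactory receptor clusters (5.18). The G10 points lie above both controls for every gene shown except HLA-DQB1, where G10 lies between 3.02 and 3.52 and the controls between 2.72 and 3.69.

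Genes of class I presentation and of the interferon response were called in part, in both directions. Of 11 class I genes measured, 3 rose and none fell (background 13.2% and 10.5% of genes): TAP1, a subunit of the peptide transporter (0.76 ± 0.08, adjusted p = 5.8e-06), TAPBP, which bridges transporter and class I (0.61 ± 0.09, adjusted p = 2.4e-04), and PSMB8, an immunoproteasome subunit (0.38 ± 0.10, adjusted p = 0.014; without G10 replicate 4 0.33, adjusted p = 0.054; without replicates 1 and 2 0.34, adjusted p = 0.12). TAP1 and PSMB8 lie on chromosome 6, where 37.0% of genes above the olfactory receptor level were higher. The difference of B2M, the class I light chain, was -0.30 ± 0.10 (adjusted p = 0.057), which passed the threshold under some settings, among them limma-trend (adjusted p = 0.041) and without G10 replicates 1 and 2 (-0.47, adjusted p = 0.016). Among 29 interferon-stimulated genes, 3 rose, 2 fell and 24 were not called. IFITM2, which restricts virus entry, rose by 1.15 ± 0.16 (adjusted p = 7.8e-05), while OAS1, a sensor of double-stranded RNA, fell with a difference of -0.90 ± 0.23 (adjusted p = 0.010), a call lost against A375 alone (-0.59, adjusted p = 0.17) and without G10 replicates 1 and 2 (-0.59, adjusted p = 0.21).

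Most protocadherin beta genes were higher in G10. Protocadherin beta genes lie side by side on chromosome 5, each with a promoter of its own, and encode cell surface proteins best known for the recognition of self among neurites. Of 16 beta genes measured, 15 were called higher (background 13.2% of genes), with a median difference over all 16 of 1.27, and 14 had all G10 arrays above all control arrays (background 7.81% of genes). PCDHB1 is among the 15, but it was at or below the olfactory receptor level in every group mean (3.47 to 4.08 in the controls and 4.04 to 4.56 in G10), so that no size can be read for it. The members resemble each other in sequence, and cross-hybridisation between them was not tested.

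Their promoters share an element that is bound by CTCF, shown here for 4 of the genes that rose, with the letters GGTGGCGCT in capitals (RefSeq, GRCh38.p14, strand of the gene, 5′ to 3′).
PCDHB2, chr5:141094525-141094593 (plus strand): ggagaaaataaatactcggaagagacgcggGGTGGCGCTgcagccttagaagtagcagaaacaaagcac
PCDHB5, chr5:141135160-141135228 (plus strand): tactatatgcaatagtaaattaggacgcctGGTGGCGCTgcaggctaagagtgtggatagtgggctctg
PCDHB9, chr5:141187055-141187123 (plus strand): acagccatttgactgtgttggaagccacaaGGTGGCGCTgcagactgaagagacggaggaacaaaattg
PCDHB16, chr5:141182291-141182359 (plus strand): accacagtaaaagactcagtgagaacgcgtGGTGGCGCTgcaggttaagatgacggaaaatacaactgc
GGTGGCGCT was present in 13 of the 14 beta promoters at hand and in 0.501% of all 35116 promoters, on either strand. The 1 without it was PCDHB1. PCDHB4, the beta gene that did not rise, has the element too.

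PCDHB9 showed the largest change of the family, with 7.06, 7.24, 6.68 and 7.06 in A375, 6.87, 7.0, 6.73 and 6.96 in PCDNA3 and 9.11, 9.32, 8.39 and 8.52 in G10. Its difference was 1.89 ± 0.16 (adjusted p = 8.3e-07). PCDHB16 was at 9.22, 9.19, 8.81 and 9.15 in A375, 9.04, 9.10, 8.75 and 8.87 in PCDNA3 and 10.63, 10.79, 10.00 and 9.95 in G10, a difference of 1.33 ± 0.15 (adjusted p = 1.6e-05). In both genes G10 replicates 1 and 2 were higher than replicates 3 and 4, and all of them were above the controls.

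PCDHB3 (1.76 ± 0.21, adjusted p = 2.4e-05), PCDHB10 (1.64 ± 0.24, adjusted p = 1.9e-04) and PCDHB5 (1.53 ± 0.14, adjusted p = 1.4e-06) came next. PCDHB4 was below the olfactory receptor level in G10 (3.66 to 4.77) and in the controls (3.66 to 4.51), so that no size is given, and it was the member that stood out in A7, at 5.68, 6.23, 5.90 and 5.51. Against A7, 9 beta genes were higher in G10 and 1, PCDHB4, was lower. PCDHB5 did not pass that test (0.37 ± 0.16, adjusted p = 0.15). Of 8 delta protocadherins, which lie elsewhere in the genome, 2 rose and none fell.

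**Figure D2:**
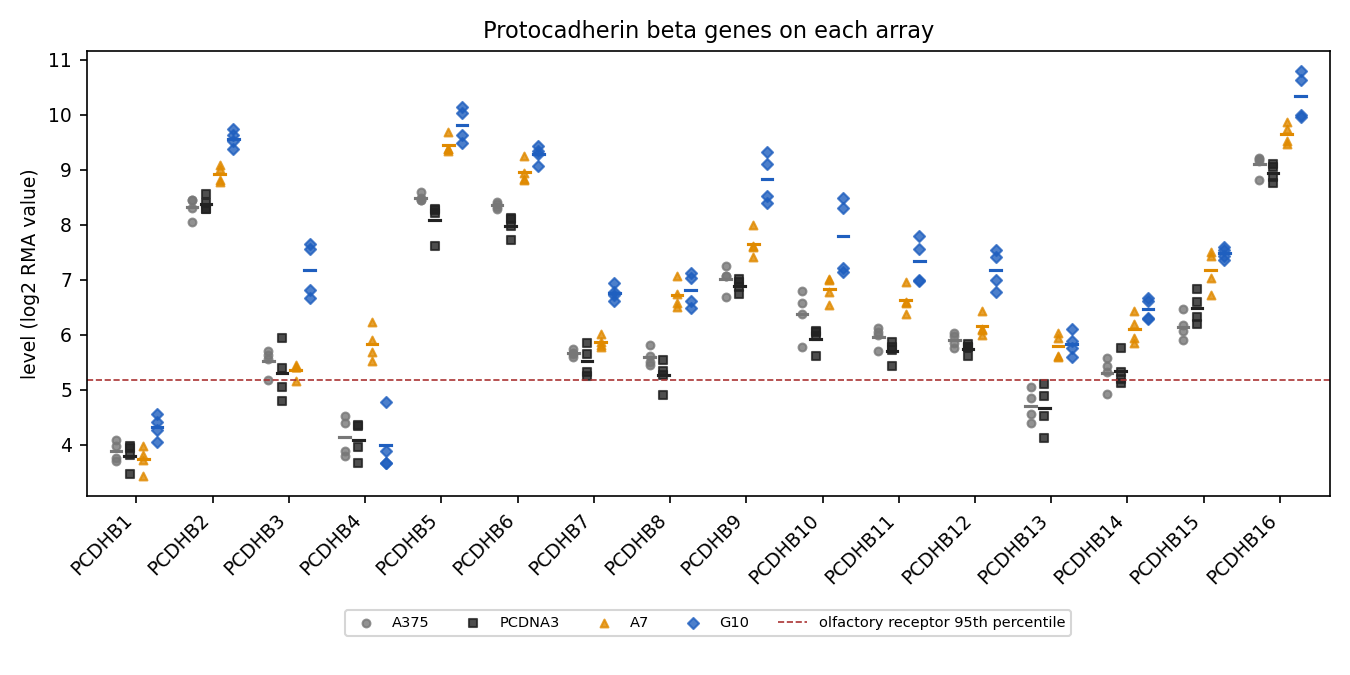
Level on the log2 scale (vertical axis) of the 16 protocadherin beta genes (horizontal axis) on each array of A375, PCDNA3, A7 and G10; points are arrays, short lines group means and the dashed line the 95th percentile of olfactory receptor clusters (5.18). For PCDHB9 the G10 arrays lie between 8.39 and 9.32 and the control arrays between 6.68 and 7.24, and PCDHB4 is the gene whose A7 arrays stand above the rest.

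Other adhesion molecules moved in both directions. Of 22 genes of the immunoglobulin and tight junction group, 8 rose and 4 fell (background 13.2% and 10.5% of genes). NCAM2, a neural adhesion molecule, was at 6.0, 6.59, 5.96 and 6.34 in A375, 5.56, 5.39, 5.37 and 5.74 in PCDNA3 and 9.23, 9.44, 8.17 and 7.91 in G10, a difference of 2.82 ± 0.24 (adjusted p = 6.4e-07). Its relative NCAM1 went the other way, from 7.74 to 8.32 on the control arrays to 6.25 to 6.64 in G10 (-1.64 ± 0.10, adjusted p = 1.6e-08). CLMP, an adhesion molecule of cell junctions, was among the largest falls of the whole array, with 9.72, 9.61, 9.83 and 9.72 in A375, 10.07, 9.62, 10.11 and 10.03 in PCDNA3 and 5.77, 5.59, 5.88 and 5.44 in G10 (-4.17 ± 0.11, adjusted p = 1.8e-12). L1CAM rose by 1.01 ± 0.20 (adjusted p = 0.0018). Of 15 cadherins, 3 rose, among them CDH19, a cadherin of Schwann cell precursors (0.80 ± 0.12, adjusted p = 2.2e-04); CDH1, the epithelial cadherin, was at the level of unexpressed genes throughout, between 4.06 and 4.35 in G10.

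Of 115 extracellular matrix genes measured, 18 rose and 29 fell (background 13.2% and 10.5%). Of 23 collagens 2 rose and 2 fell, and of 32 glycoproteins and laminins 7 rose and 7 fell. Without G10 replicates 3 and 4, 30 of the 115 matrix genes rose. COL1A2, a chain of type I collagen, was at 10.23, 10.18, 9.26 and 9.24 in A375, 9.79, 10.69, 9.40 and 10.25 in PCDNA3 and 5.79, 5.79, 5.63 and 5.74 in G10, a difference of -4.14 ± 0.27 (adjusted p = 3.3e-08). COL1A1, the partner chain, was not called (-0.10 ± 0.08, adjusted p = 0.44). Of 9 fibroblast markers measured, 1 was lower and none higher, with a median difference of -0.20. Mean levels of these markers were 5.38 to 6.03 in G10 against 6.12 to 6.60 over the control arrays, and 1 large fall can move such a mean. The part of these markers in the values above was not tested. FN1, fibronectin, was at 12.53, 12.48, 11.92 and 12.14 in A375, 12.09, 12.28, 11.58 and 11.92 in PCDNA3 and 10.39, 10.34, 9.71 and 8.90 in G10 (-2.28 ± 0.23, adjusted p = 5.0e-06).

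Among the proteoglycans, FMOD was the largest rise of the array among genes with 1 symbol. Fibromodulin binds collagen fibrils. It was at 6.15, 6.31, 5.92 and 6.01 in A375, 6.14, 6.30, 5.63 and 6.41 in PCDNA3 and 10.76, 10.58, 9.89 and 9.27 in G10, a difference of 4.02 ± 0.22 (adjusted p = 3.6e-09). Of 18 proteoglycans 3 rose and 5 fell. CSPG4, a melanoma antigen, went from 8.18 to 8.86 to 6.63 to 7.29 (-1.39 ± 0.11, adjusted p = 3.8e-07) and SDC3, a syndecan, from 8.47 to 9.38 to 7.18 to 8.03 (-1.45 ± 0.16, adjusted p = 1.2e-05). CCN1, a matricellular protein, rose by 1.38 ± 0.13 (adjusted p = 1.4e-06). PAPSS2, which makes the sulfate donor for proteoglycans, rose by 2.58 ± 0.24 (adjusted p = 1.8e-06).

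Integrins, the receptors for these proteins, fell in 8 of 16 cases and rose in 3, with a median difference of -0.42 (background 10.5% lower and 13.2% higher). ITGA10, a collagen receptor subunit, was at 8.25, 7.73, 7.19 and 7.62 in A375, 6.35, 7.11, 7.88 and 6.69 in PCDNA3 and 5.86, 5.75, 4.79 and 5.03 in G10 (-1.99 ± 0.27, adjusted p = 7.3e-05). ITGA11, another collagen receptor subunit, fell by at least 0.80, with a measured difference of -1.04 ± 0.13 (adjusted p = 4.7e-05). ITGA5, the fibronectin receptor subunit, had a difference of -0.63 ± 0.11 (adjusted p = 8.8e-04). The call of ITGB3 (-0.78 ± 0.20, adjusted p = 0.012) was lost against PCDNA3 alone (-0.50, adjusted p = 0.18) and without G10 replicate 4 (-0.62, adjusted p = 0.052) or replicates 3 and 4 (-0.19, adjusted p = 0.23). Among proteases and inhibitors, 3 of 26 rose and 7 fell, with TIMP3, an inhibitor of metalloproteinases, at -0.59 ± 0.08 (adjusted p = 1.4e-04).

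Genes that organise actin fell more often than they rose, with 30 of 80 lower and 14 higher (background 10.5% and 13.2% of genes). Within this list the share was highest among bundling, membrane-linking and contractile proteins, of which 14 of 27 fell and 4 rose (median difference -0.39). RDX, radixin, which ties actin to the membrane, was at 10.18, 10.39, 10.20 and 10.24 in A375, 10.44, 10.27, 10.41 and 10.41 in PCDNA3 and 8.34, 8.70, 8.69 and 8.81 in G10 (-1.68 ± 0.09, adjusted p = 1.9e-09). Moesin (MSN), of the same protein family, fell less (-0.51 ± 0.07, adjusted p = 8.0e-05). FSCN1, fascin, the bundler of filopodial actin, went from 10.67 to 10.90 to 9.22 to 9.55 (-1.37 ± 0.08, adjusted p = 6.2e-09).

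MTSS1, a membrane-bending actin regulator, was at 8.04, 8.45, 7.23 and 7.56 in A375, 7.11, 6.80, 6.86 and 7.15 in PCDNA3 and 5.26, 5.43, 5.69 and 5.20 in G10 (-2.01 ± 0.18, adjusted p = 1.2e-06). Against these falls MYO6, the myosin that walks to the minus end of actin, rose by 1.38 ± 0.12 (adjusted p = 8.9e-07). Of the nucleators and their regulators, the formin DIAPH3 fell (-1.54 ± 0.16, adjusted p = 4.8e-06), while its relative DIAPH2 (0.77 ± 0.12, adjusted p = 3.2e-04) and 2 members of the WAVE complex, WASF3 (1.41 ± 0.12, adjusted p = 9.0e-07) and CYFIP2 (1.35 ± 0.16, adjusted p = 2.7e-05), rose.

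Of 24 exchange factors and GTPases, 5 rose and 8 fell. TIAM1, an activator of RAC, was at 7.82, 7.82, 7.97 and 8.05 in A375, 7.60, 7.95, 7.70 and 7.70 in PCDNA3 and 5.55, 5.36, 5.97 and 5.87 in G10 (-2.14 ± 0.11, adjusted p = 1.5e-09). TIAM2 (-1.05 ± 0.12, adjusted p = 1.6e-05) and DOCK4 (-0.66 ± 0.10, adjusted p = 1.5e-04) fell as well, and PREX1, another activator, rose by 0.80 ± 0.13 (adjusted p = 4.9e-04). For RAC1 itself the difference was -0.29 ± 0.09 (adjusted p = 0.030), and its call was lost against A375 alone (-0.22, adjusted p = 0.19) and without any 1 of A375 replicate 4 and G10 replicates 1, 2 and 4 (-0.25 to -0.27).

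Guidance genes, which steer axons and migrating neural crest cells, changed on both sides of the ligand and receptor pairs. Of 17 ephrins and receptors, 7 rose and 2 fell (background 13.2% and 10.5% of genes). The 2 that fell were ligands, EFNB2 (-2.03 ± 0.13, adjusted p = 3.2e-08) and EFNA5 (-1.38 ± 0.14, adjusted p = 6.3e-06). Receptors EPHA2 (0.72 ± 0.10, adjusted p = 8.5e-05) and EPHB1 (1.08 ± 0.19, adjusted p = 8.7e-04) rose. Of 26 semaphorins and plexins, 4 rose and 6 fell, with SEMA3C, a secreted semaphorin, moving from 7.46 to 8.42 to 9.19 to 10.11 (1.70 ± 0.19, adjusted p = 1.0e-05) and its co-receptor NRP1 rising by 1.04 ± 0.19 (adjusted p = 0.0010).

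SEMA5A went from 7.34 to 8.12 to 5.22 to 6.58 (-2.03 ± 0.22, adjusted p = 8.5e-06). The netrin receptors UNC5C (2.23 ± 0.19, adjusted p = 5.9e-07) and DCC (at least 0.96, measured 1.57 ± 0.20, adjusted p = 4.3e-05) rose. The slit receptor ROBO2 fell by at least 0.99 (measured -2.05 ± 0.17, adjusted p = 5.0e-07), and its relative ROBO1 was at 0.38 ± 0.11 (adjusted p = 0.018; 0.30 with adjusted p = 0.13 against A375 alone and 0.33 with adjusted p = 0.064 without G10 replicate 3). Of the SLITRK proteins, synaptic adhesion molecules, SLITRK6 rose by 2.45 ± 0.23 (adjusted p = 2.3e-06) and SLITRK1 fell by at least 1.81 (measured -1.98 ± 0.12, adjusted p = 1.7e-08).

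Genes of the melanocyte programme were called in both directions. Of all 68 genes measured, 17.6% rose and 23.5% fell, against 13.2% and 10.5% of all genes on the array. Over placed genes above the olfactory receptor level the shares were 16.8% and 13.3%. Of 22 melanin and melanosome genes, 4 rose and 5 fell. SLC24A5, a cation exchanger needed for pigmentation, was at 8.54, 8.63, 8.35 and 8.52 in A375, 8.46, 7.48, 8.0 and 8.17 in PCDNA3 and 3.45, 3.53, 4.81 and 3.98 in G10; it fell by at least 3.09 (measured -4.33 ± 0.22, adjusted p = 1.5e-09). PMEL, the fibril protein of melanosomes, was at 6.87, 7.71, 7.08 and 7.07 in A375, 9.04, 6.98, 7.44 and 9.35 in PCDNA3 and 9.16, 9.30, 10.82 and 11.34 in G10 (2.46 ± 0.45, adjusted p = 9.4e-04), with overlapping groups and the highest values in replicates 3 and 4. TYRP1, an enzyme of melanin synthesis, rose by 1.58 ± 0.20 (adjusted p = 4.4e-05), whereas TYR (0.16 ± 0.46, adjusted p = 0.88) and MLANA (0.65 ± 0.34, adjusted p = 0.24) were not called. Without G10 replicates 1 and 2, MLANA was called higher (1.44, adjusted p = 0.0084), and without replicates 3 and 4 its difference was -0.15.

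Of 27 transcription factors of the lineage, 5 rose and 7 fell (background 13.2% and 10.5% of genes). TFAP2A and TFAP2B, AP-2 factors of neural crest, changed in opposite directions. TFAP2A was at 6.69, 6.71, 6.62 and 6.69 in A375, 6.78, 6.66, 6.56 and 6.67 in PCDNA3 and 8.57, 8.89, 8.42 and 7.97 in G10 (1.79 ± 0.14, adjusted p = 2.8e-07). TFAP2B was at 8.62, 8.73, 8.58 and 8.58 in A375, 9.03, 8.41, 8.98 and 8.91 in PCDNA3 and 6.56, 6.95, 7.12 and 6.90 in G10 (-1.84 ± 0.12, adjusted p = 1.9e-08). TCF4 (1.59 ± 0.12, adjusted p = 1.7e-07) and ZEB2 (0.92 ± 0.12, adjusted p = 4.0e-05) rose, and TWIST1, a factor of the mesenchymal programme, fell (-1.10 ± 0.09, adjusted p = 7.6e-07). MITF, the central factor of the lineage (-0.21 ± 0.18, adjusted p = 0.53), and SOX10 (-0.01 ± 0.10, adjusted p = 0.98) were not called. Without G10 replicates 1 and 2, MITF was called lower (-0.70, adjusted p = 0.0041), and without replicates 3 and 4 its difference was 0.28.

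Among receptors and ligands of melanoma, AXL, a receptor kinase, rose from 6.48 to 7.20 to 7.99 to 8.54 (1.48 ± 0.13, adjusted p = 7.3e-07) and ERBB3 by 0.83 ± 0.15 (adjusted p = 0.0011). KITLG, the ligand of KIT, was at 6.96, 7.28, 7.30 and 7.34 in A375, 7.94, 7.60, 7.95 and 7.78 in PCDNA3 and 4.69, 4.83, 6.24 and 6.06 in G10 (-2.06 ± 0.24, adjusted p = 1.5e-05), and PDGFA, a growth factor chain, fell (-1.34 ± 0.14, adjusted p = 7.2e-06). Of 40 genes listed for the invasive melanoma state, 16 rose and 6 fell (background 13.2% and 10.5% of genes). INHBA, the activin A subunit, was at 6.66, 6.10, 5.64 and 5.92 in A375, 5.86, 6.88, 7.67 and 5.81 in PCDNA3 and 9.32, 9.46, 8.37 and 8.12 in G10 (2.50 ± 0.33, adjusted p = 5.6e-05), while FST, which binds activin, fell (-1.55 ± 0.26, adjusted p = 4.9e-04), as did the cytokine LIF (-1.69 ± 0.14, adjusted p = 4.1e-07). DKK1, a secreted WNT inhibitor, was at 4.41, 3.88, 9.84 and 8.65 in G10 against 3.54 to 4.91 in the controls; its call (adjusted p = 0.038) was lost without any 1 of 9 arrays, G10 replicates 3 and 4 among them, and without both of these the difference was 0.02.

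**Figure D3:**
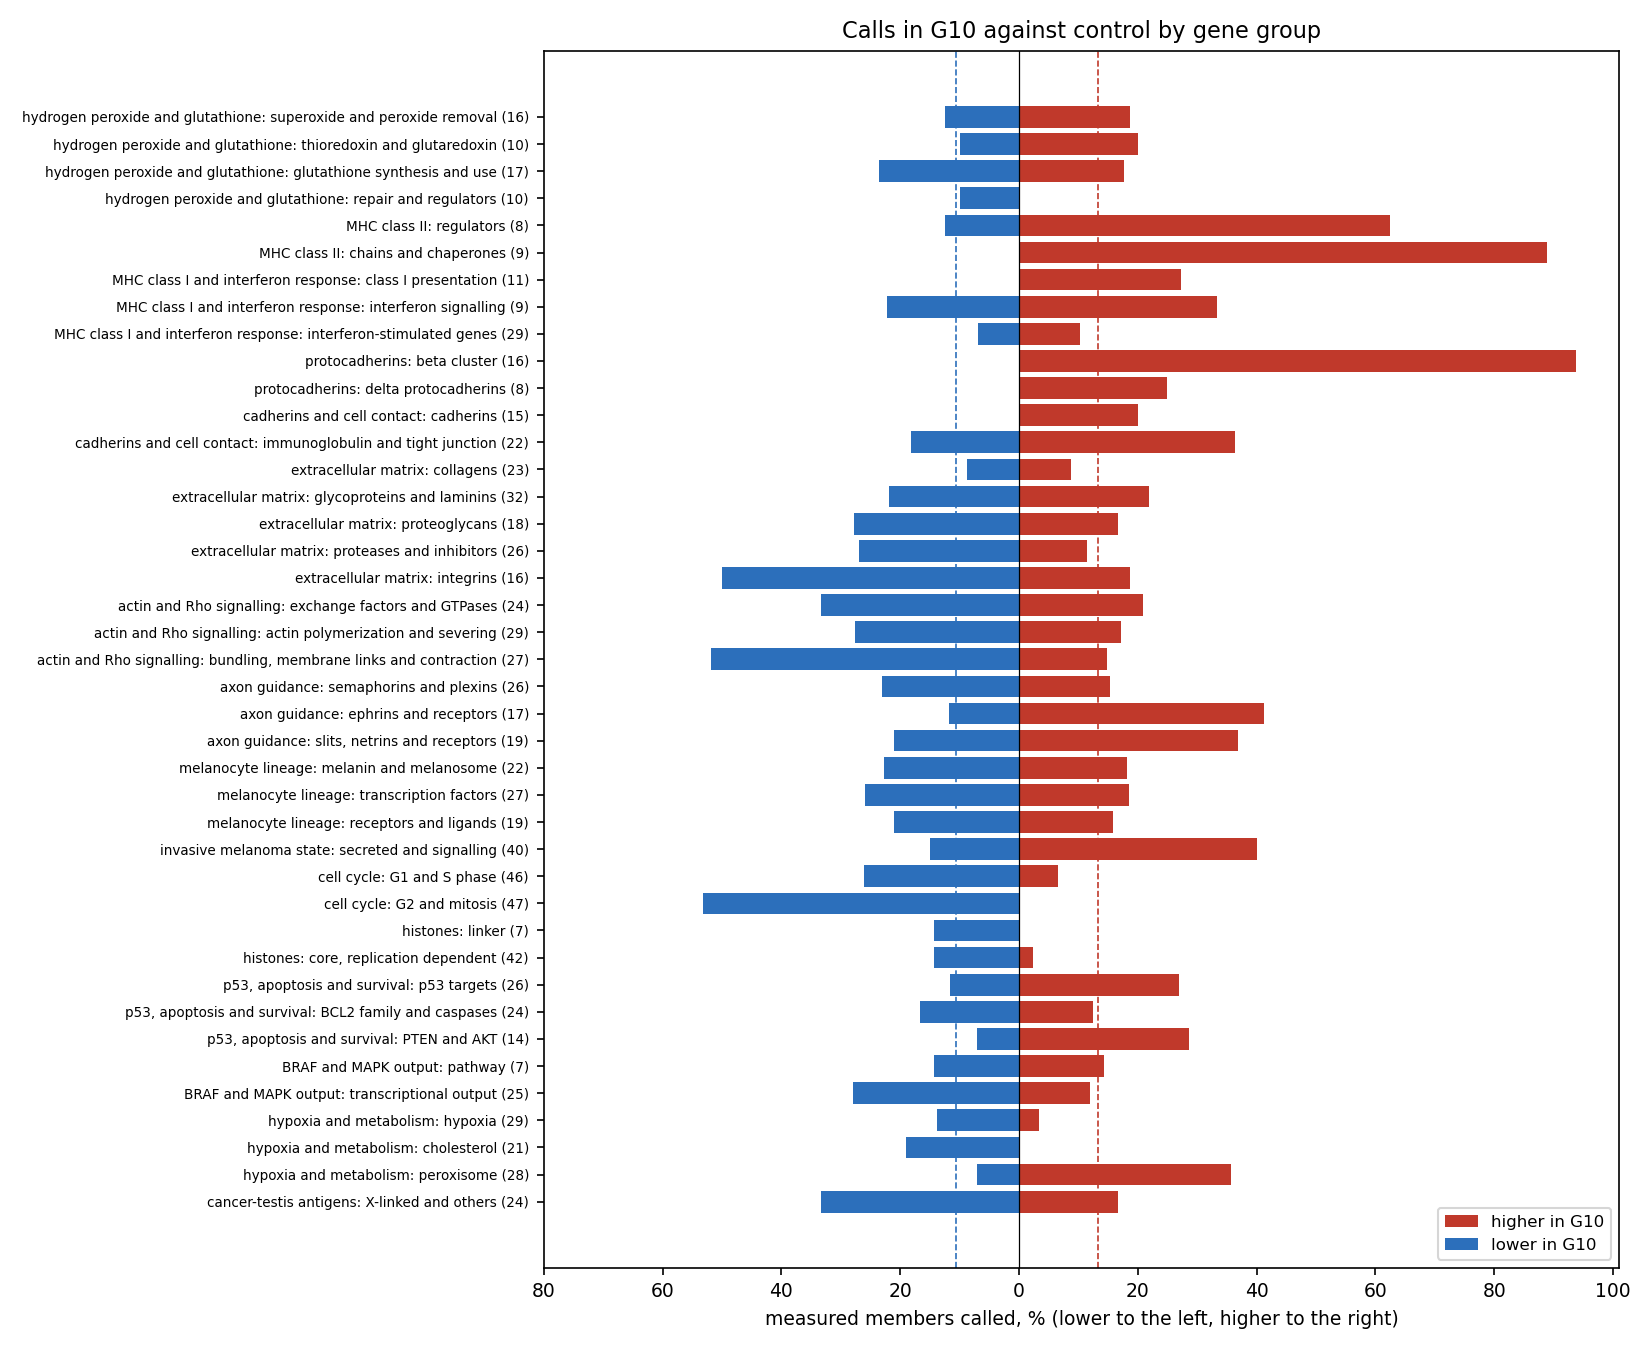
Share of measured genes called higher (red, right) or lower (blue, left) in G10 against control, in % (horizontal axis), for each gene group with its number of measured genes in parentheses (vertical axis); dashed lines give the shares over all 18417 genes, 13.2% higher and 10.5% lower. Protocadherin beta genes and class II chains lie far to the right, and mitosis genes reach to the left with none on the right.

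Genes of cell division were lower. Of 47 genes of G2 and mitosis, 25 fell and none rose (median difference -0.47), and of 46 genes of G1 and S phase 12 fell and 3 rose. Over all genes 10.5% were lower and 13.2% higher. PLK1, a mitotic kinase, was at 10.25, 10.00, 10.39 and 10.56 in A375, 11.05, 10.52, 10.75 and 10.80 in PCDNA3 and 8.87, 8.94, 9.55 and 9.90 in G10 (-1.22 ± 0.17, adjusted p = 8.5e-05), and BUB1B, of the spindle checkpoint, at 8.38, 8.61, 8.92 and 9.50 in G10 against 9.55 to 9.90 in the controls (-0.90 ± 0.15, adjusted p = 4.3e-04). MCM6, of the replicative helicase, fell (-0.76 ± 0.12, adjusted p = 4.1e-04). MKI67 (-0.24 ± 0.19, adjusted p = 0.48), CDK1 (-0.11 ± 0.22, adjusted p = 0.82) and TOP2A (0.0 ± 0.13, adjusted p = 0.99) were not called. Without G10 replicates 3 and 4, MKI67 (-0.77, adjusted p = 2.9e-04) and CDK1 (-0.63, adjusted p = 0.017) were called lower, and without replicates 1 and 2 their differences were 0.30 and 0.42. The size of this group depended on the pair of arrays: of all 93 cell cycle genes 37 fell, 76 fell without G10 replicates 3 and 4, and 13 without replicates 1 and 2. Leaving out replicate 1 alone gave 20 and replicate 2 alone 19, and A375 alone as control gave 20.

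CDKN1A, the p21 inhibitor of cyclin-dependent kinases and a target of p53, rose, with 8.06, 7.89, 7.96 and 7.97 in A375, 8.13, 8.15, 8.02 and 8.11 in PCDNA3 and 9.47, 9.46, 8.88 and 8.31 in G10 (0.99 ± 0.16, adjusted p = 3.3e-04). Of 26 p53 targets, 7 rose and 3 fell (background 13.2% and 10.5% of genes). PLK2 rose by 0.96 ± 0.16 (adjusted p = 4.2e-04), PHLDA3, which restrains AKT, fell (-0.80 ± 0.12, adjusted p = 2.3e-04), and MDM2 was not called (0.13 ± 0.09, adjusted p = 0.41). APAF1, the scaffold of the apoptosome, fell (-0.65 ± 0.09, adjusted p = 5.8e-05).

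H1-5, a linker histone, was the largest fall of the array among genes with 1 symbol. Its levels were 10.49, 9.84, 10.21 and 10.07 in A375, 10.06, 10.22, 10.42 and 10.04 in PCDNA3 and 5.28, 5.17, 5.03 and 5.08 in G10, where it reached the level of unexpressed genes; the fall was at least 4.97 (adjusted p = 2.9e-13). H1-2, another linker histone, was not called (-0.12 ± 0.14, adjusted p = 0.66). Of 42 core histone genes, 6 fell and H4C6 rose (at least 1.12, measured 1.53 ± 0.22, adjusted p = 1.3e-04). Over all 49 histone genes 7 fell, against 30 without G10 replicates 3 and 4 and 4 without replicates 1 and 2.

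Genes that handle hydrogen peroxide and glutathione were near the background, with 8 of 53 higher and 8 lower. Among the enzymes that remove peroxide, GPX7, a glutathione peroxidase of the endoplasmic reticulum, was at 9.54, 9.53, 9.43 and 9.37 in A375, 9.24, 9.42, 9.65 and 9.39 in PCDNA3 and 8.11, 8.10, 7.89 and 7.96 in G10 (-1.43 ± 0.08, adjusted p = 3.6e-09). SOD1, the cytosolic superoxide dismutase, rose by 0.26 ± 0.07 (adjusted p = 0.0099; 0.17 with adjusted p = 0.12 without replicates 3 and 4), and SOD2, the mitochondrial one, by 0.54 ± 0.13 (adjusted p = 0.0066; 0.37 with adjusted p = 0.15 without replicates 1 and 2). SOD1 lies on chromosome 21, where 44.7% of genes above the olfactory receptor level were higher and the median difference was 0.26. TXNIP, which binds and inhibits thioredoxin, was at 10.80, 10.76, 10.73 and 11.17 in A375, 9.69, 10.31, 10.32 and 9.79 in PCDNA3 and 12.63, 12.59, 11.50 and 11.61 in G10 (1.64 ± 0.21, adjusted p = 4.3e-05). Thioredoxin itself (TXN, 0.18 ± 0.12, adjusted p = 0.38) was not called, but it was called higher without G10 replicates 1 and 2 (0.44, adjusted p = 0.025).

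GSTM1, a glutathione transferase, rose by 1.06 ± 0.15 (adjusted p = 1.4e-04). SLC7A11, which imports cystine for glutathione synthesis, was at 8.59, 8.62, 10.18 and 10.21 in G10 against 10.12 to 10.93 in the controls (-1.04 ± 0.27, adjusted p = 0.012); only replicates 1 and 2 were below the controls, and the call was lost without replicate 1 (-0.77, adjusted p = 0.057) or replicate 2 (-0.78, adjusted p = 0.061). Of 28 peroxisome genes, 10 rose and 2 fell (background 13.2% and 10.5% of genes). PEX6 (0.80 ± 0.11, adjusted p = 1.2e-04) and PEX11A (0.79 ± 0.09, adjusted p = 1.6e-05), which serve import and division of peroxisomes, and the enzymes HACL1 (0.89 ± 0.10, adjusted p = 9.4e-06) and EHHADH (1.22 ± 0.21, adjusted p = 5.9e-04) of fatty acid oxidation were among those that rose. PEX6 lies on chromosome 6, in a run from MRPS10 to DNPH1 where 18 of 21 genes were higher (median 0.53).

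In the metabolic and signalling lists, CA12, a carbonic anhydrase of the cell surface, was at 7.91, 7.77, 8.13 and 8.20 in A375, 7.59, 7.42, 7.62 and 7.68 in PCDNA3 and 5.21, 5.05, 5.29 and 5.65 in G10 (-2.49 ± 0.11, adjusted p = 2.8e-10), and PDK4, which restrains pyruvate oxidation, rose from 6.40 to 8.56 to 9.38 to 10.00 (2.14 ± 0.16, adjusted p = 1.8e-07). Of 29 hypoxia genes, 1 rose and 4 fell, and of 21 cholesterol genes 4 fell, among them SQLE (-0.66 ± 0.10, adjusted p = 1.6e-04). Among 25 genes of MAPK transcriptional output, 3 rose and 7 fell (background 13.2% and 10.5% of genes). EGR1, an immediate early factor, fell (-1.0 ± 0.13, adjusted p = 6.4e-05), as did SPRED1, an inhibitor of the pathway (-0.84 ± 0.10, adjusted p = 1.6e-05).

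Cancer-testis genes are normally expressed in germ cells and reappear in tumours, and many of them are X-linked. Of 24 measured, 4 rose and 8 fell (background 13.2% and 10.5% of genes). MAGEC2 was at 8.51, 8.83, 8.95 and 8.92 in A375, 9.15, 9.40, 9.83 and 9.04 in PCDNA3 and 5.28, 4.92, 5.08 and 5.24 in G10, a fall of at least 3.86 (adjusted p = 1.8e-11). SSX1 fell by at least 2.34 (adjusted p = 9.0e-08), and MAGEB2 (-2.50 ± 0.22, adjusted p = 1.1e-06) and MAGEA10 (-2.16 ± 0.11, adjusted p = 1.8e-09) fell as well. CT55 (-3.58 ± 0.14, adjusted p = 1.3e-10) and PASD1 (at least 2.43, adjusted p = 1.2e-12), which are also known from testis, were among the 15 largest falls. RNF17, a germ cell protein, rose from below the level of unexpressed genes, at 3.18, 3.59, 2.98 and 3.17 in A375 and 2.65, 2.63, 2.78 and 2.61 in PCDNA3, to 5.96, 6.57, 6.06 and 6.01 in G10, by at least 0.97 (adjusted p = 5.2e-11). PRAME was not called (-0.19 ± 0.08, adjusted p = 0.12).

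Of 70 genes with 1 symbol past the stricter thresholds whose G10 arrays all lay beyond all control arrays, 24 were higher and 46 lower, and those with the largest differences outside the groups above were varied. LRCH2, which encodes a leucine-rich repeat protein, was at 3.87, 4.08, 3.71 and 3.50 in A375, 3.74, 3.72, 3.59 and 4.11 in PCDNA3 and 7.62, 8.01, 7.64 and 7.15 in G10, a rise of at least 2.43 (adjusted p = 3.1e-10). SLAIN1, a microtubule tip protein, was at 3.51, 3.39, 3.28 and 3.71 in A375, 3.45, 3.41, 3.56 and 3.33 in PCDNA3 and 6.77, 6.94, 7.30 and 6.97 in G10, a rise of at least 1.82 (adjusted p = 3.2e-12). SLC14A1, a urea transporter, rose by 3.41 ± 0.28 (adjusted p = 4.8e-07) and PDE3A, a cyclic nucleotide phosphodiesterase, by 2.99 ± 0.30 (adjusted p = 4.1e-06). SAT1, which acetylates spermidine and spermine, moved from 8.95 to 10.34 to 11.55 to 12.61 (2.49 ± 0.24, adjusted p = 2.5e-06).

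Among the falls, DCSTAMP, known for the fusion of osteoclasts, fell by at least 2.59 (measured -3.99 ± 0.27, adjusted p = 4.1e-08). TAC1, from which the neuropeptide substance P is cut, was at 5.81, 5.72, 7.25 and 6.57 in G10 against 9.06 to 10.26 in the controls (-3.49 ± 0.25, adjusted p = 1.2e-07). ST8SIA5, a sialyltransferase of gangliosides (-3.16 ± 0.10, adjusted p = 8.8e-12), and AKAP6, an anchor of protein kinase A (-3.10 ± 0.15, adjusted p = 8.7e-10), fell without overlap. TRAF1, an adaptor of TNF receptors, fell by at least 2.71 (adjusted p = 1.5e-09), and PROM1, known as CD133, by at least 2.70 (adjusted p = 4.3e-09).

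The calls were unevenly spread over the chromosomes. RefSeq placed 13619 genes that were above the olfactory receptor level in G10 or a control mean, of which 16.8% were higher and 13.3% lower. On chromosome 11, 283 of 840 genes were lower (33.7%) and 16 higher (1.9%), and lower calls also outnumbered higher ones on chromosomes 7 (28.8% against 5.04%), 15 (27.8% against 4.24%) and 1 (280 against 90 of 1402 genes). Higher calls prevailed most on chromosomes 21 (44.7% against 3.29%), 6 (37.0% against 5.79%), 13 (32.5% against 5.56%) and 14 (31.8% against 7.76%). Chromosomes 17 (31.2% against 2.68%), 18 (30.8% against 10.3%), 4 (28.5% against 7.74%) and 10 (27.6% against 3.75%) came next. For A7 against the same controls, 8.21% of genes on chromosome 11 were higher and 1.55% lower, and on chromosome 21 2.63% were higher and 3.95% lower. On chromosome 7, 3.74% were higher and 10.6% lower in A7, where over all placed genes 5.53% were higher and 3.71% lower. Copy number was not measured.

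**Figure D4:**
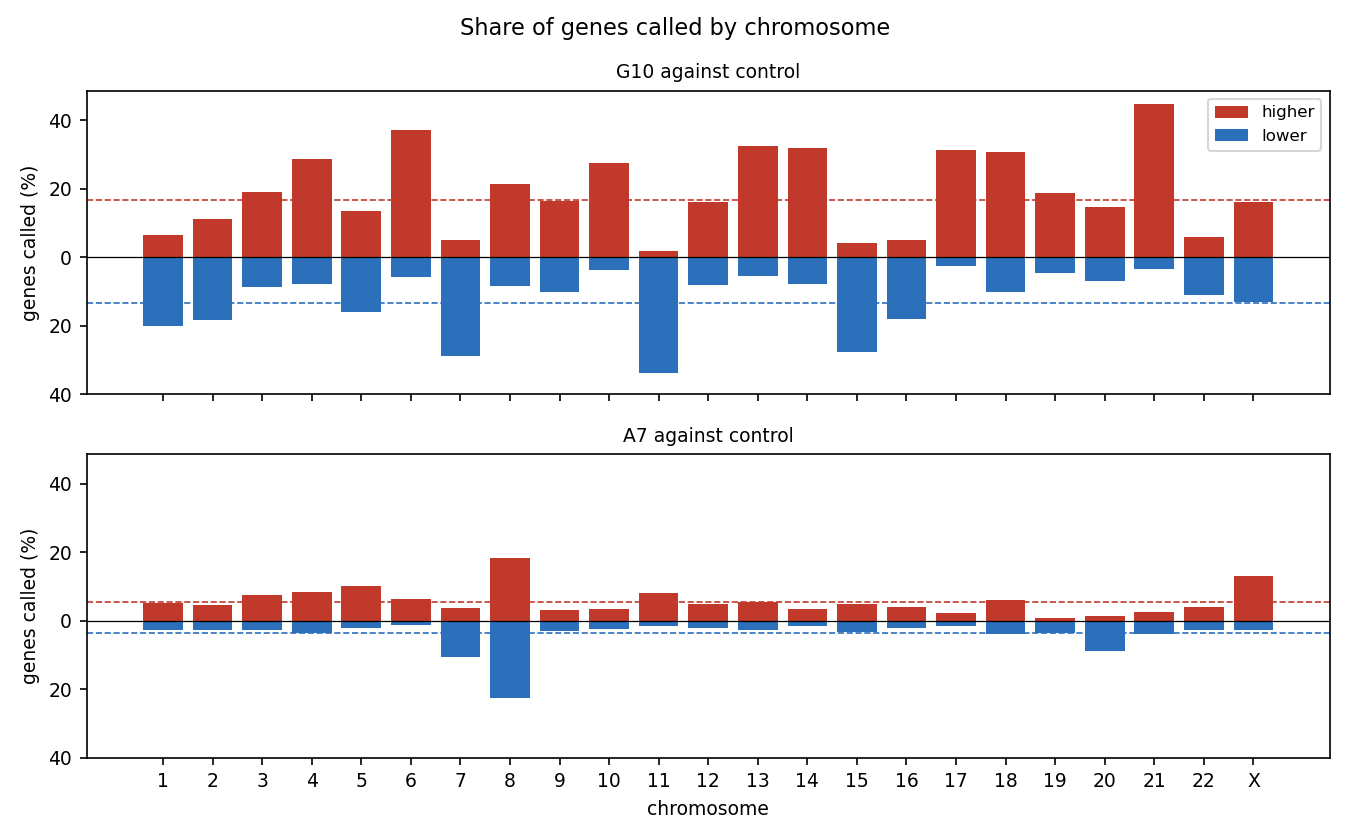
Share of genes called higher (red, upwards) or lower (blue, downwards), in % (vertical axis), on each chromosome (horizontal axis) for G10 and for A7 against control; dashed lines give the shares over all 13619 genes, for G10 16.8% higher and 13.3% lower. In G10, chromosome 21 reaches 44.7% higher and chromosome 11 33.7% lower.

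Runs of neighbouring genes changed in one direction. In windows of 21 neighbours, chosen for the size of their median and therefore given as a description, the strongest ran from POGLUT3 to NCAM1 on chromosome 11, where 19 genes were lower, none was higher and the median difference was -1.29. It holds RDX, NCAM1, CRYAB, a small heat shock protein (-1.79), SDHD, a subunit of respiratory complex II (-1.31), and DLAT, of the pyruvate dehydrogenase complex (-1.40). In A7 the median of this window was 0.01. From PCDHA7 to PCDHB18P on chromosome 5 all 21 genes were higher (median 1.22; A7 0.57), and 6 of them were protocadherin alpha genes, which share their 3′ exons, with differences of 0.56 to 0.81.

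From ZFP82 to ZNF573 on chromosome 19, a run of zinc finger genes, 18 of 21 were higher (median 0.70; A7 -0.24). From SLC1A1 to ZDHHC21 on chromosome 9, 17 were higher and 1 lower (median 0.64; A7 0.11), among them JAK2, a kinase of cytokine receptors (0.57), AK3, a mitochondrial adenylate kinase (2.09), and TYRP1. From IL10RB to MORC3 on chromosome 21, 18 were higher and 1, the interferon gamma receptor chain IFNGR2 (-0.28, a call lost without G10 replicate 4 and without replicates 3 and 4), was lower (median 0.61; A7 -0.0070), with RUNX1, a transcription factor (0.77), and IFNAR1, an interferon receptor chain (0.51). The window on chromosome 6 from BTNL2 to VPS52 held the class II genes and had 13 higher and 1 lower (median 0.57; A7 0.05). Its genes other than class II, TAP and immunoproteasome genes had differences from -0.33 for BTNL2 to 0.78 for HSD17B8.

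**Figure D5:**
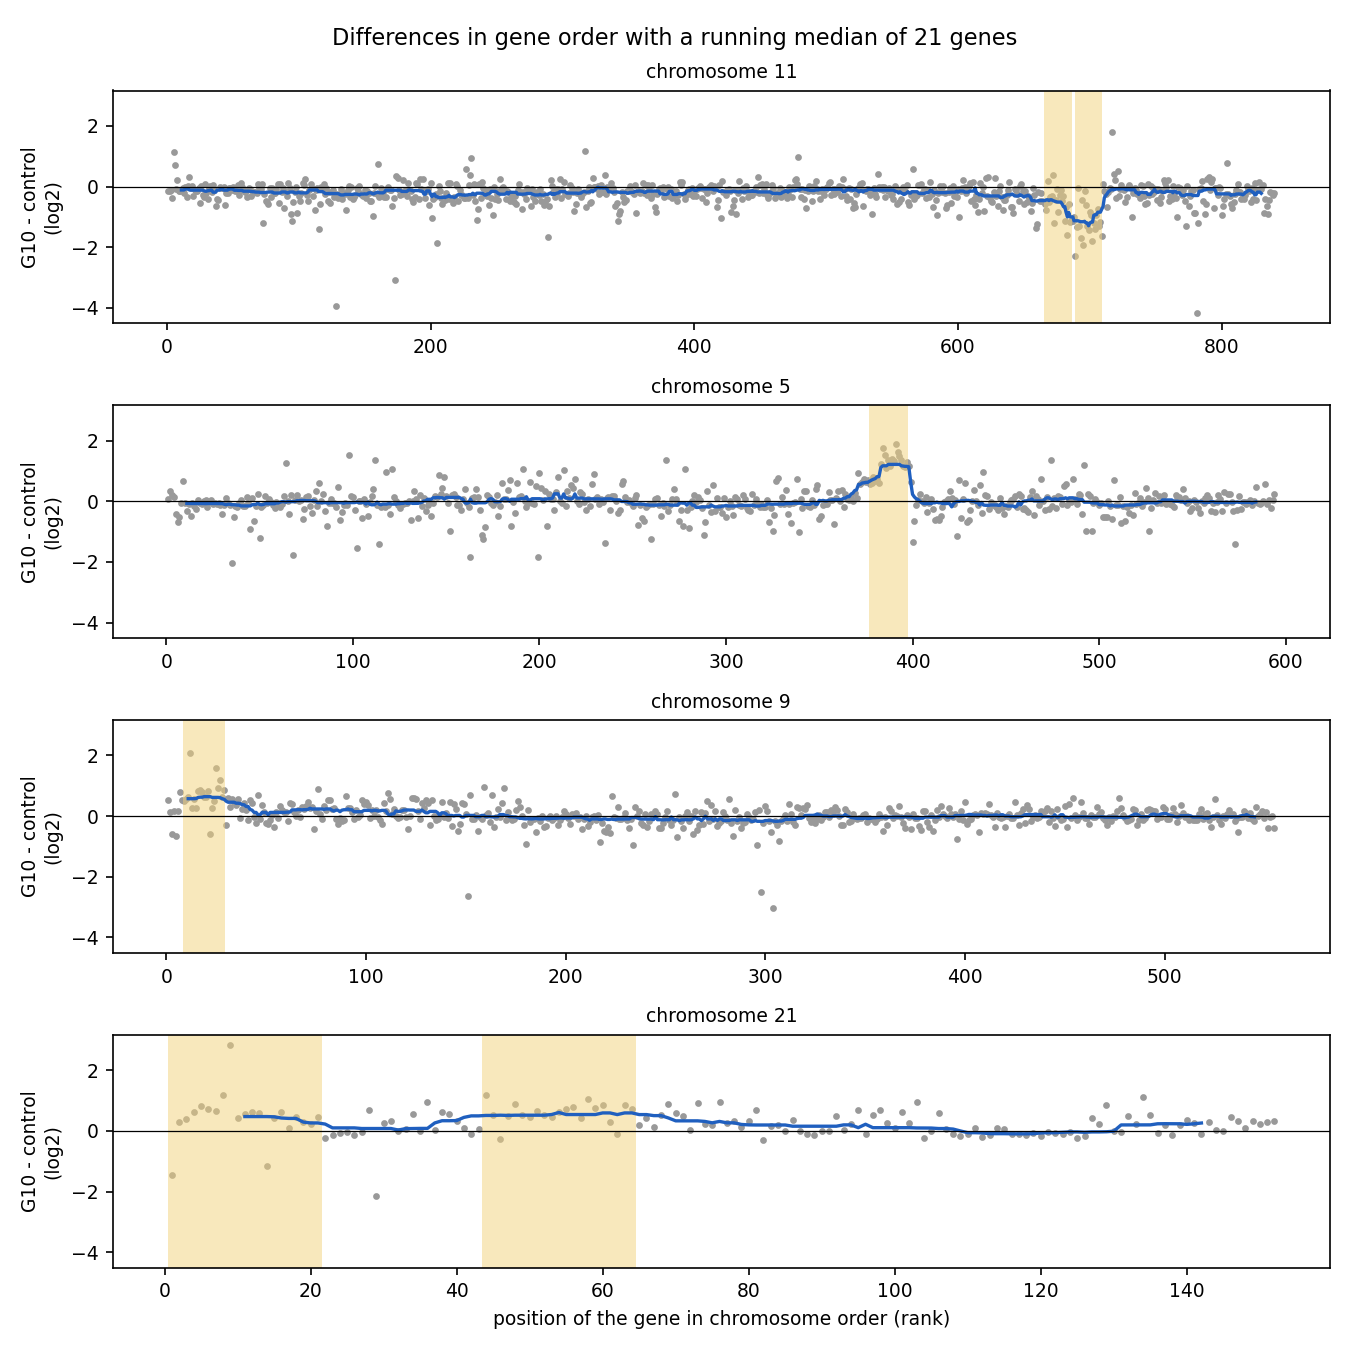
Difference of G10 minus control on the log2 scale (vertical axis) for each gene in its order along chromosomes 11, 5, 9 and 21 (horizontal axis, rank); grey points are genes, the blue line is the running median of 21 genes and shaded spans are the windows with the largest medians. The line falls to -1.29 on chromosome 11 and rises to 1.22 on chromosome 5.

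Set directly against clone A7, G10 had 2607 clusters higher (7.83%) and 2458 lower (7.38%). Both clones are compared with the same control arrays, so that their values are given side by side and the test is that of G10 against A7. AXL was at 6.10, 6.16, 6.24 and 5.84 in A7 and 7.99, 8.03, 8.35 and 8.54 in G10 (2.15 ± 0.15, adjusted p = 5.1e-08), with the controls at 6.48 to 7.20. MERTK, a receptor kinase related to AXL, stood the other way, at 7.23, 7.44, 6.52 and 6.48 in A7 and 5.15, 4.68, 4.69 and 4.40 in G10 (lower in G10 by at least 1.74, measured -2.19 ± 0.21, adjusted p = 2.9e-06), with the controls at 5.28 to 5.92.

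SDC3 (-2.03 ± 0.19, adjusted p = 1.7e-06), ITGA11 (by at least 1.43, measured -1.67 ± 0.15, adjusted p = 1.8e-06) and MAGEB2 (-3.92 ± 0.26, adjusted p = 3.2e-08) were lower in G10 than in A7, and in each of them A7 lay above the control mean and G10 below it. H2BC12, a core histone gene, was at 9.91, 9.96, 9.58 and 9.39 in A7, 7.61, 7.67, 7.84 and 8.08 in G10 and 8.24 to 9.43 in the controls (-1.91 ± 0.18, adjusted p = 1.8e-06). TP53INP1, a p53-induced stress gene, was at 3.60, 4.15, 3.50 and 3.49 in A7 and 6.55, 6.80, 5.73 and 5.83 in G10 (higher by at least 1.05, measured 2.54 ± 0.25, adjusted p = 3.1e-06). Against control, the call of TP53INP1 in G10 was lost with A375 alone (0.53, adjusted p = 0.19). It was also lost without G10 replicate 1 (0.70, adjusted p = 0.057) or 2 (0.62, adjusted p = 0.070). MARK1, a microtubule affinity kinase, rose in both clones and was not called between them (-0.04 ± 0.13, adjusted p = 0.91); it was at 7.30, 7.59, 7.32 and 7.06 in A7, 7.29, 7.14, 7.61 and 7.07 in G10 and 4.48 to 4.99 in the controls.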

How the data were processed

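RNA of A375 human melanoma cells was hybridised by the authors to Affymetrix Human Gene 1.0 ST arrays, 4 per group. The deposited values are log2 expression levels per transcript cluster, which the authors obtained with RMA (background correction, quantile normalization and summarization). RMA and limma are named in the submitters' processing notes, without versions. The genome build of the annotation is not stated in the sources used here. The single value table was used as deposited, and the number of arrays limits the precision.

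Groups were taken from the sample titles. limma 3.58.1 (R 4.3.3) was fitted to all 16 arrays with 1 mean per group, which follows the design of the study, and G10 was set against both control lines, weighted equally. p-values were adjusted by Benjamini-Hochberg over all 33297 clusters. Standard errors are the moderated ones of limma. The A7 arrays entered the estimate of the spread. On simulated data, 200 clusters changed by known amounts were used to test the fit. Tables were handled in Python 3.11.15 with pandas 2.3.3.

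Of the clusters, 19460 carry 1 gene symbol in the platform annotation, 1754 carry several and 12083 none, and genes were named from the first kind. A gene is represented by its cluster with the highest mean, and 769 genes had more than 1. Where 1 side of a comparison lay below the 95th percentile of 381 olfactory receptor clusters, the bound takes, for each array of that side, the higher of the gene's value and this percentile.

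Genes were named by rule. It takes CAT, the 15 largest rises and the 15 largest falls past 2 log2 units and an adjusted p of 1e-04 without overlap of the groups, and from each role of each gene list up to 5 members with the largest called differences, together with key members. Genes of neighbour windows, CREB1, the markers named, and those set against A7 were chosen after their values were seen, as were the printed promoters and the letters searched in them. The gene lists and the comparison itself were chosen with earlier results of these data known. Positions, gene order and promoters come from RefSeq (GRCh38.p14).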

Additional observations from a re-analysis of the deposited data

Results flagged for a closer look

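For 146 genes with values in the text, the 4 arrays of G10, A375 and PCDNA3 were each looked at for a single array apart from the other 3. In 38 of 438 such groups the gap to the nearest array exceeded Dixon's 95% critical value, and chance gives about 1 group in 20. G10 replicate 2 lay above the other 3 arrays of its group for MYO6 (log2 level 8.15) and RNF17 (log2 level 6.57). G10 replicate 3 lay above the other 3 arrays of its group for EPHA2 (log2 level 8.09), HLA-DOA (log2 level 8.22), MSN (log2 level 10.78), NRP1 (log2 level 8.57) and RAC1 (log2 level 12.08). G10 replicate 4 lay below the other 3 arrays of its group for LIF (log2 level 6.79) and PASD1 (log2 level 3.55). A375 replicate 2 lay above the other 3 arrays of its group for CAT (log2 level 9.03), EGR1 (log2 level 9.13), HLA-DOA (log2 level 6.30) and TAP1 (log2 level 8.29). A375 replicate 3 lay above the other 3 arrays of its group for H4C6 (log2 level 4.76). A375 replicate 4 lay above the other 3 arrays of its group for CREB1 (log2 level 10.26), DKK1 (log2 level 3.91), HLA-DQA1 (log2 level 5.55) and TXNIP (log2 level 11.17). A375 replicate 1 lay below the other 3 arrays of its group for MAGEB2 (log2 level 8.19) and SPRED1 (log2 level 10.24). A375 replicate 3 lay below the other 3 arrays of its group for NCAM1 (log2 level 7.96) and PCDHB16 (log2 level 8.81). A375 replicate 4 lay below the other 3 arrays of its group for TXN (log2 level 10.64). PCDNA3 replicate 1 lay above the other 3 arrays of its group for EGR1 (log2 level 8.39) and RAC1 (log2 level 12.45). PCDNA3 replicate 2 lay above the other 3 arrays of its group for IFNAR1 (log2 level 8.89), SLC7A11 (log2 level 10.93) and SLITRK6 (log2 level 7.18). PCDNA3 replicate 3 lay above the other 3 arrays of its group for CDK1 (log2 level 9.52), NFYA (log2 level 8.92) and PROM1 (log2 level 8.51). PCDNA3 replicate 4 lay above the other 3 arrays of its group for CAT (log2 level 8.71). PCDNA3 replicate 2 lay below the other 3 arrays of its group for CLMP (log2 level 9.62), PREX1 (log2 level 6.97) and SEMA5A (log2 level 7.40). PCDNA3 replicate 3 lay below the other 3 arrays of its group for PCDHB5 (log2 level 7.61). PCDNA3 replicate 4 lay below the other 3 arrays of its group for FSCN1 (log2 level 10.67) and HLA-DOB (log2 level 3.76).

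The difference between G10 and the other catalase clone A7, taken against the same controls and tested as G10 minus A7 by limma, was called for AXL (2.15, adjusted p = 5.1e-08), CAT (-0.75, adjusted p = 0.0022), H2BC12 (-1.91, adjusted p = 1.8e-06), ITGA11 (-1.67, adjusted p = 1.8e-06), MAGEB2 (-3.92, adjusted p = 3.2e-08), MERTK (-2.19, adjusted p = 2.9e-06), SDC3 (-2.03, adjusted p = 1.7e-06) and TP53INP1 (2.54, adjusted p = 3.1e-06), among 10 genes for which the text gives that comparison. For MERTK, ITGA11 and TP53INP1, 1 of the clones was below the olfactory receptor level, and the bounds stand in the report.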

How the results depend on the processing

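The 4 counts of called clusters and the CAT difference were recomputed with A375 or PCDNA3 alone as control, the 8 control arrays as 1 group, the 12 arrays without A7, limma-trend, robust eBayes, array weights, further quantile normalization, median centring, expressed clusters only, clusters with 1 symbol only, the replicate block, and without each array in turn. After the correlations of the G10 arrays were seen, fits without G10 arrays 3 and 4 or without arrays 1 and 2 were added. No count moved by more than 1.5 times under these settings, except that the 39 clusters higher by at least 2 log2 units became 61 without G10 arrays 3 and 4. Leaving out each array gave 2642 to 3328 clusters higher, 1946 to 2697 lower, and 35 to 40 higher and 50 to 57 lower past the stricter thresholds. Another threshold changed the counts more. With an adjusted p limit of 0.001, 1108 clusters were higher and 738 lower, and treat with a limit of 1 log2 unit left 67 and 87. At an unadjusted p under 0.05, 4604 clusters were lower.

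CAT (-0.38, adjusted p = 0.053 by limma) stayed negative under every setting run and passed the threshold under some. It was -0.47 against A375 alone (adjusted p = 0.048), -0.38 with limma-trend (adjusted p = 0.046), with expressed clusters only (adjusted p = 0.033) and with 1-symbol clusters only (adjusted p = 0.031), -0.42 after further quantile normalization (adjusted p = 0.039) and -0.65 without G10 arrays 1 and 2 (adjusted p = 0.0053). Fewer clusters tested lower the adjusted p in both filters. It was -0.12 without G10 arrays 3 and 4 (adjusted p = 0.55), -0.24 with array weights (adjusted p = 0.16) and -0.30 against PCDNA3 alone (adjusted p = 0.23). Leaving out each array gave -0.48 to -0.20. CAT was called lower without G10 replicate 1 (-0.46, adjusted p = 0.036) and without replicate 2 (-0.48, adjusted p = 0.028).

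Of 145 genes with differences in the text, 120 kept their call and direction under all 26 settings. A further 10 genes, none of them called in the report, changed sign in at least 1 setting and were called with the new sign in none. Without G10 arrays 1 and 2 the difference was 0.42 for CDK1, 0.10 for H1-2, -0.019 for MDM2 and 0.30 for MKI67. Without G10 arrays 3 and 4 it was 0.28 for MITF, -0.15 for MLANA, 0.16 for SOX10, -0.24 for TOP2A, -0.081 for TXN and -0.81 for TYR. Array weights gave 0.049 for MITF, 0.10 for SOX10, -0.10 for TOP2A and -0.38 for TYR. PCDNA3 alone as control gave 0.11 for SOX10, -0.018 for TOP2A and -0.088 for TYR, and median centring gave 0.030 for SOX10. Leaving out each array gave -0.41 to 0.069 for CDK1, -0.091 to 0.11 for SOX10, -0.19 to 0.10 for TOP2A and -0.37 to 0.50 for TYR.

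Among these 145 genes, the calls lost without G10 arrays 1 and 2 were those of CREB1, OAS1, PCDHB1, PSMB8, RAC1, RFX5, ROBO1, SLC7A11 (-0.25), SOD2 and TP53INP1 (0.36). B2M, CAT, MITF, MLANA, PRAME (-0.30, adjusted p = 0.045) and TXN were gained. Without G10 arrays 3 and 4, DKK1 (0.019), ITGB3, ROBO1 and SOD1 were lost and CDK1 and MKI67 gained, MKI67 also with array weights (-0.50, adjusted p = 0.039). IFNGR2, given with its neighbour window, was not counted among the 145 genes. Further genes stayed called but moved by over 1.5 times. Without arrays 1 and 2 these were BUB1B (-0.54), CDKN1A (0.56), DCC (0.99), DKK1, EHHADH (0.63), ERBB3 (0.39), ITGB3 (-1.37), KITLG (-1.37), MCM6 (-0.43), PCDHB10 (1.03), PLK1 (-0.82) and PLK2 (0.50). Without arrays 3 and 4 they were EPHB1 (0.57), ERBB3 (1.27), H4C6 (0.99), IFNAR1 (0.32), PMEL (1.54), SLC7A11 (-1.84) and TP53INP1 (1.26). B2M also passed with expressed clusters only, with 1-symbol clusters only, and without A375 replicate 3 or G10 replicate 1 (-0.33 and -0.36).

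Among the gene groups, array weights gave 69 cell cycle genes lower, 19 histone genes lower and 15 peroxide and glutathione genes lower. The weights of G10 arrays 1 to 4 were 1.09, 1.57, 0.39 and 0.46, so that arrays 3 and 4 counted less in that fit. A375 alone as control gave 8 actin and 11 guidance genes higher, against 14 and 18. PCDNA3 alone gave 9 class I and interferon genes lower, against 4. Without G10 arrays 3 and 4, 13 MAPK genes were lower, against 8. The cause was not tested.

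The arrays of the groups share replicate numbers 1 to 4. Same-numbered arrays deviated together in 1 of 12 pairs (r over 0.1, median 0.029), so that the numbers were not taken to pair them. With the replicate number as a block, 3171 clusters were higher and 2572 lower, 38 and 56 past the stricter thresholds, and the CAT difference was -0.38 (adjusted p = 0.064). RAC1 was the gene named whose call was lost with the block (adjusted p = 0.056).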

Other observations

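The genes with the largest spread within G10 separated replicates 1 and 2 from replicates 3 and 4. They were chosen for that spread and carry no test. DKK1 was named in the report. IGFBP5, a binding protein of insulin-like growth factors, had log2 levels of 8.95, 8.86, 4.86 and 5.12 on G10 replicates 1 to 4, with means of 5.81 in A375 and 5.09 in PCDNA3. SULF1, a sulfatase of heparan sulfate, was at 8.29, 8.45, 5.48 and 4.88 in G10, between which the means of A375 (7.31) and PCDNA3 (6.57) lay. ENPP2, autotaxin, was at 9.33, 9.23, 6.0 and 5.80, and PMP2, a myelin protein, at 8.40, 8.30, 4.35 and 5.89. These genes were high in replicates 1 and 2.

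Others were high in replicates 3 and 4. MRGPRX4, a G protein-coupled receptor, was at 5.17, 5.91, 9.22 and 9.22 in G10, with means of 9.68 in A375 and 11.24 in PCDNA3. CXCL1, a chemokine, was at 6.47, 6.38, 10.03 and 7.76, with means of 6.04 in A375 and 6.15 in PCDNA3. RAB27B, of vesicle transport, was at 5.06, 4.95, 7.93 and 7.86, and IL7R, the receptor of interleukin-7, at 3.71, 4.15, 6.60 and 6.84. Over all clusters the median SD within a group was 0.18 in G10, 0.15 in A375, 0.16 in PCDNA3 and 0.16 in A7.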
